A study of Mus musculus with 2 samples.

Results

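Genes that act as brakes on ERK signalling were measured in mouse keratinocytes labelled CHUK-LoxP mutant and in wild-type keratinocytes. The group holds 10 genes: the dual-specificity phosphatase genes Dusp1, Dusp4, Dusp5, Dusp6, Dusp7 and Dusp10, the Sprouty genes Spry1, Spry2 and Spry4, and the Sprouty-related gene Spred1. Its probes were all gene probes whose gene name in the scanner files equals 1 of these symbols. This gave 14 of the 41174 gene probes on the array, for 9 of the 10 genes (21337 genes in all were named on the array), and no probe carried the name Dusp5, which is not analysed here. Of the 14 probes, 13 entered the test, because 1 or both channels passed the scanner's call of well above background on array 1 and again on array 2. The 13 covered all 9 genes.

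The study hybridised 2 Agilent whole-genome arrays, each with RNA of keratinocytes labelled as CHUK-LoxP mutant in the Cy5 (red) channel and wild-type keratinocyte RNA in the Cy3 (green) channel. The Cy5 channel is called the channel labelled Chuk-deleted here, although the sample labels read CHUK-LoxP mutant and state no deletion. Chuk encodes IKKα, which belongs to the IκB kinase complex and which the epidermis needs to mature, and loxP sites are the sequences at which Cre recombinase cuts. The labels give no Cre driver, strain, age or treatment, and do not say whether the cells were a line or a primary culture, or whether the RNAs of the arrays came from separate cultures or animals. No dye swap is named, so what the dyes do and what the genotypes do cannot be told apart.

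When growth factor receptors such as the EGF and FGF receptors are active, adaptors switch on RAS, and RAS drives the kinases RAF, MEK and ERK in turn. ERK enters the nucleus and induces, among other genes, those of its own inhibitors. Dual-specificity phosphatases remove phosphate from the threonine and tyrosine of the activation loop of MAP kinases, while Sprouty and Spred proteins act upstream, between the receptor, RAS and RAF. In keratinocytes this pathway drives proliferation and migration, and transcripts of the inhibitors are widely used as a readout of ERK activity.

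The median gene spot had an intensity of 218 in Cy5 and 109.9 in Cy3 on array 1, and of 171.5 and 95.2 on array 2, over median local backgrounds of 72 to 74 in Cy5 and 41 to 42 in Cy3. The precision is limited by the number of arrays, which leaves 1 residual degree of freedom for each probe. The p-values combine the difference between the 2 arrays at a probe with a variance pooled over all tested probes. That pooled variance carries 5.14 prior degrees of freedom and so most of the weight. The spread between the arrays may be technical. Both Chuk probes, A_51_P223475 and A_52_P386468, had positive mean log2 ratios, 0.74 and 0.85. The channel called Chuk-deleted was thus the brighter one for Chuk itself, which goes against that name. The sample labels state no deletion, and the files do not give a deleted part of the gene. A probe outside such a part checks nothing, so every direction given here rests on the labels of the channels. Unless another scale is named, values are loess-normalised log2 ratios of the Cy5 over the Cy3 channel, and "rose" and "fell" describe the channel labelled Chuk-deleted relative to the wild-type channel, at an adjusted p under 0.05 by limma with Benjamini-Hochberg adjustment over all tested probes.

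Of the 9 genes, each represented by its brightest tested probe, 6 rose (Dusp4, Dusp6, Dusp7, Spry2, Spry4 and Spred1) and 0 fell, while Dusp1, Dusp10 and Spry1 did not pass the test, and the count was 0 higher and 8 lower under spike-in centring, in which the mean log2 ratio of the spike-in control spots is subtracted from each array. Among all 13758 genes tested, 61.2% passed the test, 33.0% with a rise and 28.3% with a fall. The median log2 ratio of the 9 genes was 0.20 (0.17 on array 1 and 0.22 on array 2), and that of all genes tested was 0.02. None of the 9 lay 2-fold apart on both arrays, as 4.70% of all genes did. At the level of probes, 7 of 13 rose and 1 fell, against 33.4% and 27.9% of all tested probes. The 8 of 13 called probes make a share near the 61.4% of all tested probes. Dusp6 rose most, followed by Dusp7, Spry2 and Spry4. The 95% interval of Dusp6 (0.59 to 0.88) lay above that of Dusp7 (0.27 to 0.55), whereas the intervals of Dusp7, Spry2 and Spry4 overlapped. Differences between genes were not tested.

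**Figure D1:**
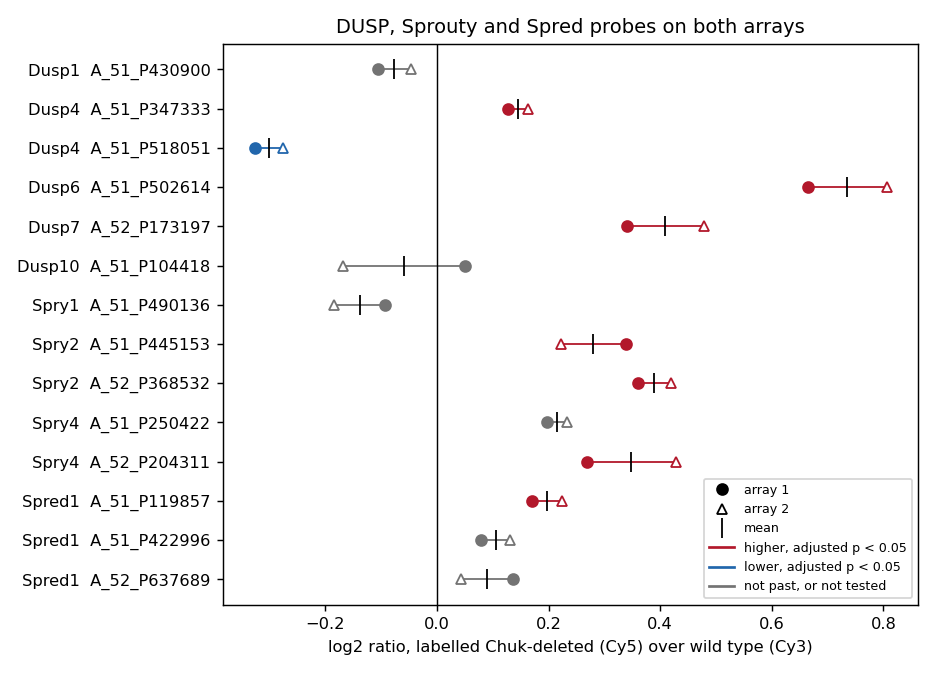
Loess-normalised log2 ratio of each of the 14 probes, labelled Chuk-deleted (Cy5) over wild type (Cy3), on array 1 (filled circles) and array 2 (open triangles), with the mean as a bar; red and blue mark probes past the limma threshold. Dusp6 stands at the right with 0.66 and 0.81, the 2 Dusp4 probes lie on opposite sides of 0, and after spike-in centring all 13 tested means lie below 0.

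To show the sequence around the start of members that rose and of 1 that did not, the 250 bases before the RefSeq start (GRCm38.p6) are printed for Dusp6, Dusp7 and Spry2, which rose most, and for Dusp1, in which matches were found. Dusp4 and Spry4, which are among the genes that rose, were left out of the motif search. Such stretches were taken for the other 8 of the 10 genes. Each was searched on both strands for 8 motifs. For AP-1, the factor of the Fos and Jun proteins, the letters were TGANTCA. For the cyclic AMP response element, bound by CREB, the whole site was TGACGTCA. Its core, which the whole element also contains, was searched by itself as TGACG. For the ETS family of factors, which ERK can phosphorylate, the letters were CCGGAA. An E-box was taken as CACGTG, the form bound by MYC proteins among others. The TATA box was searched in the form TATAAA, and the CArG box and the κB site were searched too. Capitals mark matches, and sequences without capitals had none.
Dusp6, chr10:99262981-99263230, plus strand: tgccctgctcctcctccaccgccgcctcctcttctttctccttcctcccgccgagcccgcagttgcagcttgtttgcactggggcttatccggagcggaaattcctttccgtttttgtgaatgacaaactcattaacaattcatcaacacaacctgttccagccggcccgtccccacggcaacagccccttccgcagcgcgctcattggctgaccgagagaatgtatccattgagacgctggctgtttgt
Dusp7, chr9:106368382-106368631, plus strand: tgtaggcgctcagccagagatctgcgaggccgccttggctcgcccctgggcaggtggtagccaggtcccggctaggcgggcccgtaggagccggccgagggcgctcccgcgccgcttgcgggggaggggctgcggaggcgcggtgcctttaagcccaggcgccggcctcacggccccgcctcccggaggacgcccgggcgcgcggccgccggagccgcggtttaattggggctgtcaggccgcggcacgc
Spry2, chr14:105896820-105897069, minus strand: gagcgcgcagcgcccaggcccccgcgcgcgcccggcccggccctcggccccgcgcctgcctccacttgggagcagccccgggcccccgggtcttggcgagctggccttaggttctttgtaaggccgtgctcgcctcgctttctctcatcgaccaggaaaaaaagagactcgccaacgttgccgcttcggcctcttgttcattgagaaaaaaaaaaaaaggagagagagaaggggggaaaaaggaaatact
Dusp1, chr17:26508473-26508722, minus strand: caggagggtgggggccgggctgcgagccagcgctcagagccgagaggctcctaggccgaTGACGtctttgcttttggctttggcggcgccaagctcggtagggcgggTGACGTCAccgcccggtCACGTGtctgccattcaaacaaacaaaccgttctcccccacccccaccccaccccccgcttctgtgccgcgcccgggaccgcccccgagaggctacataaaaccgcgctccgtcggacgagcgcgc
The stretch of Dusp1 held the whole response element at positions -143 to -136 relative to the start, a further core at -191 to -187 and an E-box at -126 to -121. The whole element was found in 1.55% of the 32851 stretches of equal length in the table, the core in 17.77% and the E-box in 6.02%. Of the 8 genes searched, Dusp1 and Dusp5 held a match to any of the 8 motifs, where 48.7% of all stretches did. The ETS letters CCGGAA, in 12.03% of all stretches, and the searched form of the κB site, in 5.93%, had no match in any of the 8 genes searched. Other forms of these sites were not searched. These counts say nothing about Dusp4 and Spry4, which were not searched. A match is a description of the letters only.

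Dusp6 and Dusp7 encode the phosphatases of the cytoplasm that prefer ERK over the other MAP kinases. The normalised intensity of Dusp6 (probe A_51_P502614) was 43623 on array 1 and 69030.2 on array 2 in the channel labelled Chuk-deleted, against 27527 and 39477 in the wild-type channel. Both values of the channel labelled Chuk-deleted lay above both wild-type values, and array 2 was the brighter array in each channel after normalisation. In raw intensity array 1 was the brighter, with 101964 against 93399 in Cy5 and 20457 against 17712 in Cy3. The log2 ratios of 0.66 and 0.81 gave a mean of 0.74 ± 0.10 (SD, n = 2), a 1.66-fold difference (adjusted p = 0.000158, limma). This placed the Dusp6 probe above 95.3% of all tested probes. Its spot was not saturated on either array.

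For Dusp7 (probe A_52_P173197), the normalised intensity was 18653 and 12826 in the channel labelled Chuk-deleted, against 14738 and 9208 in the wild-type channel. The channel labelled Chuk-deleted was higher on each array, but array 1 was brighter in both channels, so that the 2 groups of values overlap. Log2 ratios of 0.34 and 0.48 averaged 0.41 ± 0.10 (SD, n = 2), a 1.33-fold difference (adjusted p = 0.00141, limma). After spike-in centring Dusp6 lay at -0.03 (adjusted p = 0.821, limma) and Dusp7 at -0.35 (adjusted p = 0.00407, limma).

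**Figure D2:**
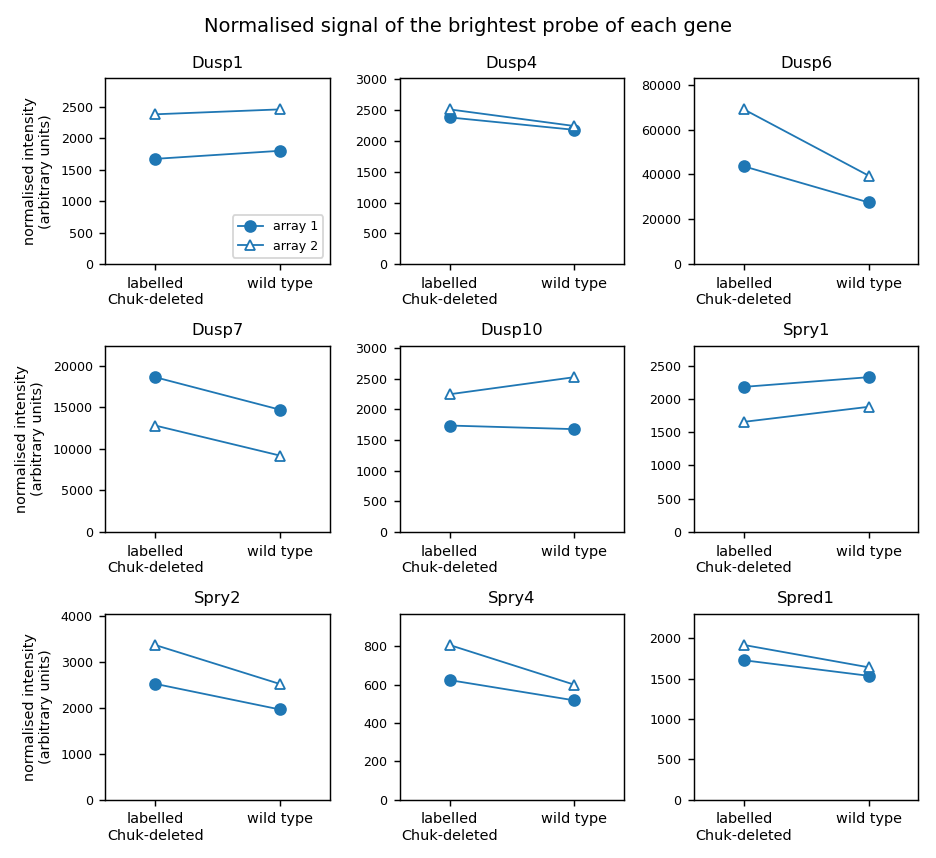
Normalised intensity (arbitrary units, each panel with its own axis from 0) of the brightest probe of each of the 9 genes, in the channel labelled Chuk-deleted and in the wild-type channel; a line joins the channels of 1 array. In Dusp6, Dusp7, Spry2, Spry4, Spred1 and Dusp4 both lines lie higher in the channel labelled Chuk-deleted under loess normalisation, and in Dusp10 the lines run in opposite directions; after spike-in centring all 9 mean ratios lie below 0.

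Dusp1 and Dusp4 encode phosphatases of the nucleus that are induced quickly by growth factors and act on ERK, JNK and p38. Dusp1 (probe A_51_P430900) had 1673 and 2381 in the channel labelled Chuk-deleted, against 1801 and 2460 in the wild-type channel. The channels of each array were close, with log2 ratios of -0.11 and -0.05, and the mean of -0.08 ± 0.04 (SD, n = 2) did not pass the test (95% interval -0.20 to 0.05, adjusted p = 0.247, limma). Dusp1 thus had the matches printed above and no called difference. Dusp10 and Spry1, which also had no called difference, held no match, and a link between matches and ratios was not tested.

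Dusp4 was measured by 2 probes, which moved in opposite directions. Probe A_51_P347333, assigned in the files to a cDNA clone, had 2381 and 2511 in the channel labelled Chuk-deleted, against 2180 and 2242 in the wild-type channel, with no overlap. Its log2 ratios of 0.13 and 0.16 gave a mean of 0.15 ± 0.03 (SD, n = 2), a 1.11-fold difference just past the threshold (adjusted p = 0.0483, limma). The call was lost with the software's own processed signals (adjusted p = 0.0717), without the filter on dim probes (0.0789) and with a smaller background offset of 16 (0.101, limma in each case). The other probe, A_51_P518051, assigned to a RefSeq transcript, had 944 and 1028 in the channel labelled Chuk-deleted, against 1185 and 1245 in the wild-type channel. Here the wild-type channel was the higher one on both arrays, and the probe fell by 0.30 ± 0.04 on the log2 scale (log2 ratios of -0.33 and -0.28, adjusted p = 0.00314, limma). The gap between the probes was 0.45 on array 1 and 0.44 on array 2, so both arrays show it. Of the 5529 genes with several tested probes, 24.6% had a larger gap, with a median gap of 0.24, and in 9.80% probes were called in opposite directions. With median centring brought back to the loess median of tested probes, A_51_P518051 lay at -0.17 and did not pass (adjusted p = 0.0707, limma). Under loess the direction of Dusp4 therefore depends on the probe, and with the mean over all tested probes of a gene 5 of the 9 genes rose instead of 6. On other scales A_51_P347333 and A_51_P518051 were called in the same direction. Both were higher with median centring (0.78 and 0.28) and both lower with spike-in centring (-0.62 and -1.07).

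Dusp10 encodes a phosphatase that prefers JNK and p38 over ERK. Probe A_51_P104418 had 1737 and 2248 in the channel labelled Chuk-deleted, against 1678 and 2527 in the wild-type channel. The arrays disagreed in direction, with log2 ratios of 0.05 and -0.17, and the mean of -0.06 ± 0.15 (SD, n = 2) did not pass (95% interval -0.22 to 0.10, adjusted p = 0.472, limma). It had the widest spread between arrays of the 14 probes.

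Sprouty proteins are induced by receptor signalling and block its passage to RAS and RAF, and Sprouty proteins also bind the ubiquitin ligase CBL, which marks receptors for breakdown. The gene Spry2 was measured by 2 probes. The brighter, A_52_P368532, had 2526 and 3372 in the channel labelled Chuk-deleted, against 1967 and 2523 in the wild-type channel. The lower value of the channel labelled Chuk-deleted (2526) was barely above the higher wild-type value (2523). Log2 ratios of 0.36 and 0.42 averaged 0.39 ± 0.04 (SD, n = 2), a 1.31-fold difference (adjusted p = 0.00112, limma). The dimmer probe, A_51_P445153, had 185 and 182 in the channel labelled Chuk-deleted, against 146 and 156 in the wild-type channel, and rose by 0.28 ± 0.08 (adjusted p = 0.00585, limma). Both probes of Spry2 rose under loess, and after spike-in centring both fell, by 0.37 and 0.48 on the log2 scale. With median centring brought back to the loess median of tested probes, an alternative chosen after seeing the data, the dimmer probe lay at 0.036 and its call was lost (adjusted p = 0.707, limma).

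Spry4 had 2 probes as well. Probe A_52_P204311 had 624 and 807 in the channel labelled Chuk-deleted, against 518 and 600.4 in the wild-type channel, without overlap. The log2 ratios were 0.27 and 0.43, which gave 0.35 ± 0.11 (SD, n = 2), a 1.27-fold difference (adjusted p = 0.00321, limma). The other, A_51_P250422, was not tested: its Cy3 signal missed the call of well above background on both arrays, with raw intensities of 77.2 and 68.5 over local backgrounds of 45.5 and 42, and its Cy5 signal was so on array 1 only. Its log2 ratios of 0.20 and 0.23 had the same sign as those of the tested Spry4 probe. Spry1 (probe A_51_P490136) had 2183 and 1657 in the channel labelled Chuk-deleted, against 2329 and 1883 in the wild-type channel. Among the Sprouty genes it alone had a mean below 0 under loess (0.48 with median centring), at -0.14 ± 0.06 (SD, n = 2), with log2 ratios of -0.09 and -0.18, and it did not pass the test (95% interval -0.27 to -0.01, adjusted p = 0.0656, limma).

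Spred1 encodes a membrane protein that brings neurofibromin, the product of Nf1, to RAS. Of its 3 probes, A_51_P119857 was the brightest, with 1728 and 1917 in the channel labelled Chuk-deleted, against 1535 and 1641 in the wild-type channel, again without overlap. Its log2 ratios of 0.17 and 0.22 averaged 0.20 ± 0.04 (SD, n = 2), a 1.15-fold difference (adjusted p = 0.0173, limma), and the call was lost with the software's processed signals (adjusted p = 0.0676, limma). Probes A_51_P422996 (mean 0.10 ± 0.04) and A_52_P637689 (mean 0.09 ± 0.07, SD, n = 2 each) had the same sign and did not pass (adjusted p = 0.127 and 0.196, limma). All 3 means lay within 0.11 of each other under loess. With median centring brought back to the loess median of tested probes, an alternative chosen after seeing the data, the calls differed in direction. There A_51_P119857 was higher at 0.36 (adjusted p = 0.000558, limma) and A_51_P422996 lower at -0.22 (adjusted p = 0.0199, limma). A_52_P637689 lay at -0.017 and did not pass (adjusted p = 0.867, limma).

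The authors' deposited table of scanner values holds a p-value for each spot from the software's error model within 1 array. By the authors' deposited table, p was 0.00219 and 0.000228 for Dusp6 on arrays 1 and 2, and 0.0253 and 0.0449 for the dimmer Spry2 probe. Of the 13 tested probes these 2 were under 0.05 on both arrays in the authors' deposited table, where 28.2% of all tested probes were.

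**Figure D3:**
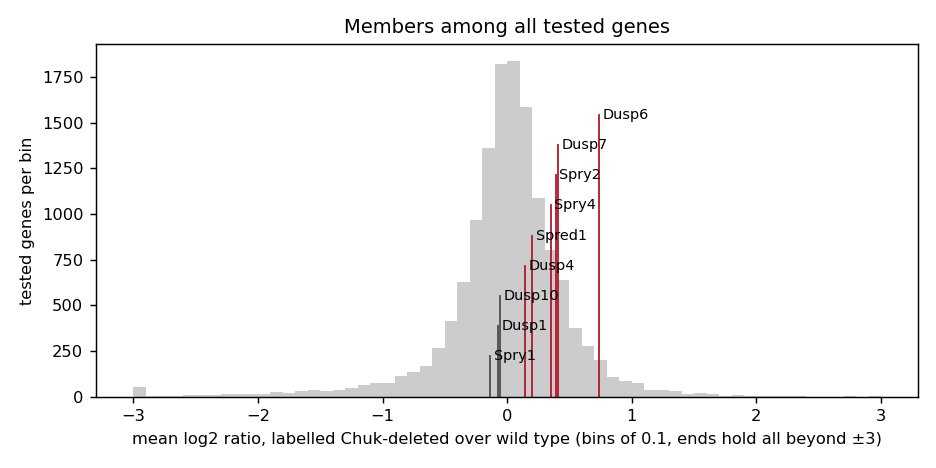
Number of tested genes per bin of 0.1 in mean log2 ratio, labelled Chuk-deleted over wild type, for all 13758 genes (grey), with a line for each of the 9 measured members (red for those that rose under loess normalisation). The members lie between -0.14 and 0.74, with Dusp6 farthest out, above 95.3% of all tested probes. Spike-in centring moves all genes to the left by 0.76 and leaves their order as it is.

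The size of the ratios moved with the normalisation, and so did their sign, which spike-in centring reversed for 9 tested member probes. Centring each array on its median in place of loess raised the all-gene median by 0.53, and lowering by the spike-in mean after loess lowered it by 0.76. Taken relative to the median of all tested probes, Dusp6 lay at 0.72 under loess and spike-in centring, 0.70 with the software's signals and 1.11 with median centring. The corresponding values for Dusp7 were 0.39, 0.38 and 0.69, and those for the brighter Spry2 probe 0.37, 0.39 and 0.56. Of the 9 genes, 6 lay above that median under loess and the software's signals, and 9 did so with median centring. Spike-in centring subtracts 1 value per array after loess, so relative to that median it repeats the loess values by construction.

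**Figure D4:**
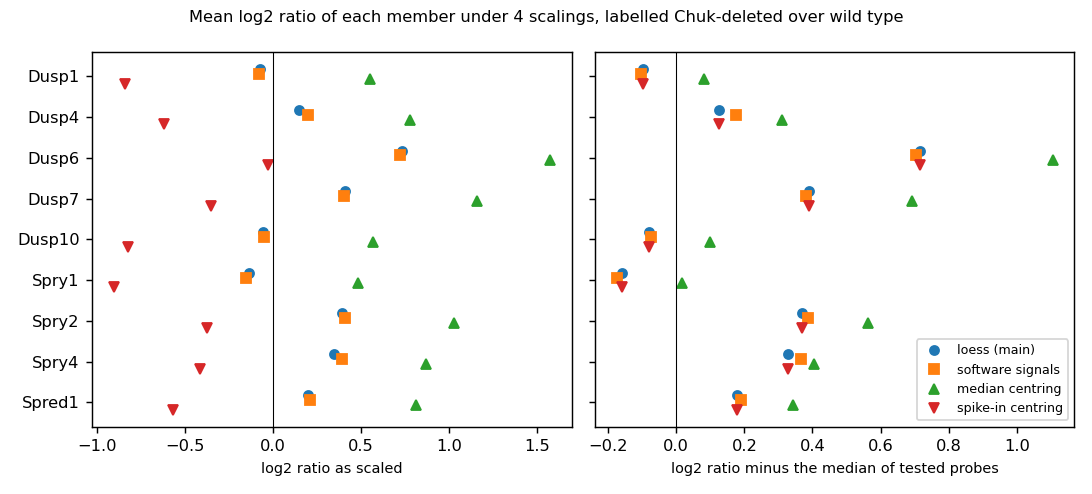
Mean log2 ratio, labelled Chuk-deleted over wild type, of the brightest probe of each measured member under loess, the software's processed signals, median centring and spike-in centring; left as scaled, right after subtraction of the median of all tested probes. On the left all 9 members lie above 0 with median centring and below 0 with spike-in centring. On the right Dusp6 is the highest member under each of the 4 scalings, of which spike-in centring repeats loess by construction.

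Other genes of the pathway were taken from 8 lists, which hold 112 genes beside the members, and 104 of these were tested. Of them 35 rose and 37 fell, with a median log2 ratio of 0.05, near that of all genes tested (2 higher and 94 lower after spike-in centring, 81 and 9 with median centring). The remaining phosphatase, Sprouty and Spred genes rose in 2 of 8 tested and fell in 5, with a median of -0.17 (0 higher and 7 lower after spike-in centring, 4 and 2 with median centring). Dusp14 fell by 0.94 ± 0.08 and Dusp16, a phosphatase of JNK and p38, by 0.72 ± 0.10 (SD, n = 2 each, adjusted p = 6.75e-05 and 0.000170, limma). Dusp3, a small phosphatase without the docking domain of the larger family members, rose by 0.60 ± 0.09 and Spred2, the closest relative of Spred1 in the list, by 0.28 ± 0.02 (adjusted p = 0.000299 and 0.00403, limma). The other tested Spred2 probe rose by 0.60 ± 0.05, which gave a mean over probes of 0.44.

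Other brakes on RAS and ERK rose in 9 of 14 tested genes and fell in 3, with a median of 0.24 (0 higher and 11 lower after spike-in centring, 14 and 0 with median centring). Nf1, a GTPase activator that switches RAS off and the partner of Spred1, had log2 ratios of 0.86 and 0.90 (mean 0.88 ± 0.03, adjusted p = 6.56e-05, limma). The other tested Nf1 probe lay at -0.02 ± 0.15 and did not pass, and the mean over both was 0.43. Rasa3, another GTPase activator, rose by 0.59 ± 0.09 and Lrig1, which restrains EGF receptors at the membrane, by 0.56 ± 0.05, while Rgs2 fell by 0.42 with nearly equal values on both arrays (adjusted p = 0.000310, 0.000291 and 0.000761, limma). The other tested probe of Rasa3 rose by 0.19 ± 0.07, which gave a mean over probes of 0.39. Of 11 tested partners of Sprouty proteins, 4 rose and 5 fell, with a median of 0.10 (0 higher and 11 lower after spike-in centring, 10 and 0 with median centring, and 3 and 2 with the software's signals). Ppp2ca, a catalytic subunit of the phosphatase PP2A, fell by 0.63 ± 0.11, Prkcd by 0.41 ± 0.14 and Ppp2r1a, the PP2A scaffold, by 0.31 ± 0.14, and Cav1, of caveolae, rose by 0.49 ± 0.01 (SD, n = 2 each). The other tested Cav1 probe lay at 0.12 ± 0.01 and did not pass, and the mean over both was 0.30.

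In the core cascade of RAS, RAF, MEK and ERK, 1 of 13 tested genes rose and 5 fell, with a median of -0.06, close to that of all genes (0 higher and 13 lower after spike-in centring, 11 and 0 with median centring). Mapk3, which encodes ERK1, fell by 0.51 ± 0.17, the RAS gene Nras by 0.47 ± 0.05 and Braf by 0.22 ± 0.06, while Mras rose by 0.32 ± 0.12 (SD, n = 2 each). Of the 4 tested Braf probes 3 fell and 1 rose, and their mean of -0.08 did not pass (adjusted p = 0.147, limma). Among receptor adaptors and RAS exchange factors 3 of 13 rose and 4 fell, with a median of -0.06 (0 higher and 12 lower after spike-in centring, 8 and 1 with median centring). The docking protein gene Gab1 fell by 0.66 ± 0.05 and the exchange factor gene Sos2 by 0.44 ± 0.13, whereas Frs3 rose by 0.46 ± 0.06 and Rasgrp1 by 0.54 ± 0.04 (SD, n = 2 each). The other Rasgrp1 probe fell by 0.51 ± 0.05, so that the mean over both was 0.01 and did not pass, and the Cy3 signal of the brighter was well above background on 1 array.

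Of 16 tested EGF and FGF receptor and ligand genes, 8 rose and 5 fell, with a median of 0.12 (2 higher and 14 lower after spike-in centring, 11 and 3 with median centring). The receptor gene Erbb3 fell by 1.55 ± 0.34, and the ligand gene Btc fell by 1.54 ± 0.48, its Cy5 signal being well above background on 1 of the 2 arrays. The other tested Erbb3 probes fell by 0.27 ± 0.03 and 0.44 ± 0.07, which gave a mean over the 3 probes of -0.75. Tgfa, another ligand gene, fell, with log2 ratios of -0.80 and -1.59 on arrays 1 and 2 (adjusted p = 0.00133, limma). The other tested Tgfa probe fell by 0.67 ± 0.11, which gave a mean over probes of -0.93. The ligand gene Epgn rose by 1.35 ± 0.11 (SD, n = 2 each). JNK and p38 kinases and their activators rose in 5 of 13 tested genes and fell in 2, with a median of 0.08 (0 higher and 12 lower after spike-in centring, 11 and 1 with median centring). Mapk8, which encodes JNK1, rose by 0.74 ± 0.05 and the p38 gene Mapk11 by 0.33 ± 0.01, while Map3k5 and Map2k4 fell by 0.62 ± 0.21 and 0.44 ± 0.10 (SD, n = 2 each). The other tested Mapk8 probe lay at -0.08 ± 0.08 and did not pass, and the mean over both was 0.33.

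Transcripts that ERK induces did not move together. Of 18 tested, 5 rose and 8 fell, with a median of 0.07 (0 higher and 16 lower after spike-in centring, 14 and 2 with median centring). The immediate early gene Egr2 fell, with log2 ratios of -2.74 and -3.26 on arrays 1 and 2 (SD 0.37, adjusted p = 2.54e-05, limma). Egr3 fell by 1.25 ± 0.14, with its Cy5 signal well above background on 1 array (adjusted p = 4.90e-05, limma). Ier3, an early gene linked to survival, fell by 0.75 ± 0.31, and the ETS factor gene Etv1 rose by 0.64 ± 0.04 (SD, n = 2 each).

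Marker genes of keratinocyte layers and of other cell types moved on the same arrays. Basal keratinocyte markers, all 10 of them tested, rose in 9 and fell in 1, led by the laminin gene Lamb3 (1.60 ± 0.38), and all 10 suprabasal markers fell, led by the transglutaminase gene Tgm1 (-2.90 ± 0.84). The summed normalised intensity of the suprabasal list was 31114 and 22052 in the channel labelled Chuk-deleted, against 95310 and 126598 in the wild-type channel. Fibroblast markers rose in 12 of 14 and fell in 1, led by Fbln2 (1.84 ± 0.38), with summed intensities of 575523 and 622987 in the channel labelled Chuk-deleted, against 268921 and 243641 in the wild-type channel, and none of the 14 was below the detection filter. Melanocyte markers fell in 8 of 9, with sums of 21227 and 18773 in the channel labelled Chuk-deleted, against 49968 and 50932.5 in the wild-type channel. Of 10 immune markers 4 were tested, 1 of which rose and 3 fell, and Ptprc, Cd207, Cd74, Itgam, Itgax and Trdc were not. Of 8 endothelial markers Kdr rose and Vwf fell, and the other 6 were not tested. After spike-in centring 3 basal markers rose and 3 fell, and 8 fibroblast markers rose and 3 fell. In RNA of whole samples, fewer cells of a type and less RNA per cell cannot be told apart, and the part of these shifts in the values of the Dusp, Sprouty and Spred genes was not tested.

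**Figure D5:**
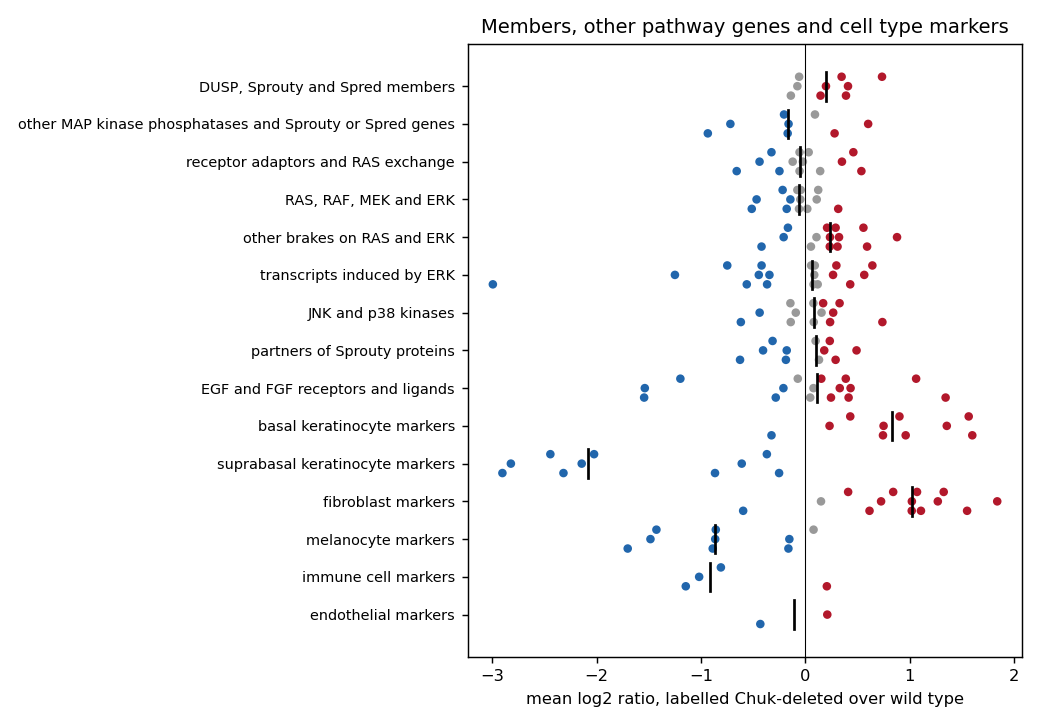
Mean log2 ratio, labelled Chuk-deleted over wild type, of each tested gene (points, red for a rise and blue for a fall under loess normalisation, grey for neither) in the members, the 8 lists of other pathway genes and the 6 lists of cell type markers, with the median of each list as a bar. The members have a median of 0.20, between those of the suprabasal markers at -2.09 and the fibroblast markers at 1.02; spike-in centring lowers all points by 0.76.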

How the data were processed

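Per the file headers, the authors scanned the arrays and used Agilent's Feature Extraction software, version 9.1.3.1. Spot intensity is mean pixel brightness with the median local background beside it, uncorrected, per the file headers. The software's processed intensity had spatial and multiplicative detrending and dye normalisation, with the background correction setting off, per the file headers, as were the deposited log10 ratio and its error-model p-value. The deposited value table of the series equalled those log10 ratios to within 0.005. The arrays shared a slide and a scan.

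All fits used limma 3.58.1 in R 4.3.3. The normexp correction had an offset of 50, and log2 ratios (Cy5 over Cy3) came from a loess fit to each array in which control spots had weight 0. Of the outlier spots dropped, 51 lay on array 1 and 18 on array 2. The 23540 probes with 1 or both channels well above background on array 1, and likewise on array 2, were tested with lmFit and eBayes against 0, two-sided, with Benjamini-Hochberg adjustment. eBayes added 5.14 prior degrees of freedom. The code was tested on simulated data. The tested probes were named through RefSeq (GRCm38.p6): 16148 by accession, 4722 by symbol or synonym, 629 by the file's name, and 2041 had no gene. A gene is represented by its brightest tested probe. Normalised intensities are per channel after loess and Aquantile.

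The members and lists were chosen with earlier results of these data known. All members are named, with up to 4 called genes of largest change from each other list, and Chuk.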

Additional observations from a re-analysis of the deposited data

How the results depend on the processing

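Leaving out array 1 or array 2 leaves 1 array and no test, so the counts of called genes could not be recomputed there. With 1 array left the sign of a member can be read and its stability cannot: Dusp10 lay at -0.17 on array 2 and 0.05 on array 1. 0 members lay 2-fold apart on either array. Of the other pathway genes, 1 to 2 were 2-fold higher and 4 to 5 were 2-fold lower, the larger counts coming from array 2 alone. No paired analysis was possible because there is 1 group of ratios, so no block by replicate number can be added; each ratio already pairs the channels within an array. Keeping outlier spots, requiring both channels above background, dropping the filter on dim probes, an offset of 16, the software's signals and probe means changed no total count of members or of all other pathway genes by over 1.5 times. For single lists the software's signals gave fewer falls: 2 against 5 for Sprouty partners, 1 against 3 for other brakes, and 3 against 5 both for the remaining phosphatase, Sprouty and Spred genes and for the RAS to ERK cascade. With median centring, 12 member probes were higher and 0 lower, and Dusp1 (0.55), Dusp10 (0.57), Spry1 (0.48) and the Dusp4 probe A_51_P518051 (0.28) turned to a positive sign, while 81 pathway genes were higher and 9 lower. Spike-in centring gave 0 member probes higher and 12 lower, 0 member genes higher and 8 lower, and 2 pathway genes higher and 94 lower. It turned the sign of Dusp4 A_51_P347333 (-0.62), Dusp6 (-0.029), Dusp7 (-0.35), Spry2 (-0.48 and -0.37), Spry4 (-0.42) and Spred1 (-0.57, -0.66 and -0.67). Spike-in centring subtracts 1 value per array, so its shift is by construction. Median centring also leaves out loess. In an alternative added after seeing the data, median centring with the median of the tested probes brought back to that under loess, Dusp1 (0.10), Dusp10 (0.12), Spry1 (0.036) and 2 dim Spred1 probes (-0.22 and -0.017) reversed, and Spry2 A_51_P445153 (0.036) and Dusp4 A_51_P518051 (-0.17) lost their calls; the cause was not tested. Signal over background limits Spry4 probe A_51_P250422.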
